A study of Saccharomyces cerevisiae with 14 samples.

Results

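Zinc uptake and storage in budding yeast (Saccharomyces cerevisiae) was followed through 8 genes, found by their standard or systematic names among the 6094 genes on the arrays. All 8 were present, each at 1 array position with a pair of spots. They were ZRT1 (YGL255W), ZRT2 (YLR130C), ZAP1 (YJL056C), ZPS1 (YOL154W), ZRT3 (YKL175W), ZRC1 (YMR243C), COT1 (YOR316C) and ADH4 (YGL256W). The series holds 14 membrane arrays hybridised with 33P-labelled cDNA, 1 array per condition.

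Strain FF18984 was grown in F1, a minimal medium, and in YPD, a rich medium. In each medium, aliquots were mock-treated or received 0.00125% or 0.0125% MMS, methyl methanesulfonate, which alkylates DNA, and were sampled after 30 min and after 1 h. This gave 6 F1 and 6 YPD arrays. Strain BY4742 was grown in YPD and sampled after 1 h, with 0.0125% MMS and with mock treatment. All cultures were in mid log phase at 30 °C when they were split. The labels give neither the zinc content of the media nor the genotypes, and nothing says that the arrays of a medium came from separate cultures.

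Yeast takes up zinc across the plasma membrane and keeps a reserve of it in the vacuole. The transcription factor Zap1 senses zinc: when the metal is scarce it activates the genes of uptake and of release from the vacuole, its own gene, and some genes whose products save zinc. Zrt1 is the high-affinity and Zrt2 the low-affinity zinc transporter of the plasma membrane. Zrt3 releases zinc from the vacuole, and Zrc1 and Cot1 carry it in. Zps1 is a cell wall protein and Adh4 an alcohol dehydrogenase isoenzyme, and both are known for their high expression in zinc-limited cells.

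Some features of the arrays bear on every value below. Each medium and time had its own membrane, stripped between doses, so that within a time medium and membrane cannot be told apart. Across genes, the median Spearman rho of 2 FF18984 arrays was 0.768 if both were of 30 min, 0.771 if both were of 1 h and 0.340 if the times differed. BY4742 arrays, labelled 1 h, correlated at 0.825 with the FF18984 YPD arrays of 30 min and at 0.343 with those of 1 h. The media were therefore compared at each time, or with time as a term of the fit. Some genes differed widely between the arrays of 30 min and 1 h in both media. CKI1 averaged -0.21 in F1 and -0.91 in YPD at 30 min, and 3.49 and 3.10 at 1 h. Whether a spot reports the same gene in the arrays of both times was not tested. Per array, 2.58% to 33.4% of genes were at or below the local background, and most, at 31.4% and 33.4%, in the high-dose 1 h arrays of F1 and YPD. Mating type genes were compared between the strains, whose mating types the labels do not give. Here 7 of 7 a-specific genes had the higher mean in FF18984, in its arrays of either time. BAR1 differed little, at 1.08 (30 min) and 0.95 (1 h) in FF18984 against 0.85 in BY4742. Of the alpha-specific genes, 4 of 4 had the higher mean in BY4742 against the 1 h arrays and 3 of 4 against the 30 min arrays, where SAG1 averaged 2.73 in FF18984 and 2.44 in BY4742. Amino acid biosynthesis genes, known for high expression in minimal medium, served as a check of the medium labels, and 18 of 21 were higher in F1, against 51.2% of all genes. Of these 5 passed the test as higher, against 1.95% of all genes, and the largest differences were in MET6 (4.67), LEU1 (2.09) and HIS4 (2.08). MET6 had the highest F1 minus YPD difference of all 6094 genes.

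Minimal medium was compared with rich medium over the 12 FF18984 arrays. ZRT1 and ZPS1 rose in F1 by an estimated 11.0-fold and 12.4-fold, and were the third and second highest of 6094 differences. The other 6 genes did not pass the test. ZRT3 and ADH4 averaged higher in F1 by 1.19 and 0.95 on the log2 scale, and ZRT2, COT1, ZAP1 and ZRC1 lay between -0.40 and 0.34. Values are normalized log2 intensities after a pseudocount of 0.187 times the array median, which understates the differences of dim genes. The test was limma's, with Benjamini-Hochberg adjustment over all genes and a threshold of 0.05. In simulated arrays with a shift per membrane, unchanged genes made up a larger share of the calls of this fit than that threshold stands for. The adjusted p-values of the fit and its count of 320 called genes may therefore be too favourable where membranes differ.

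**Figure D1:**
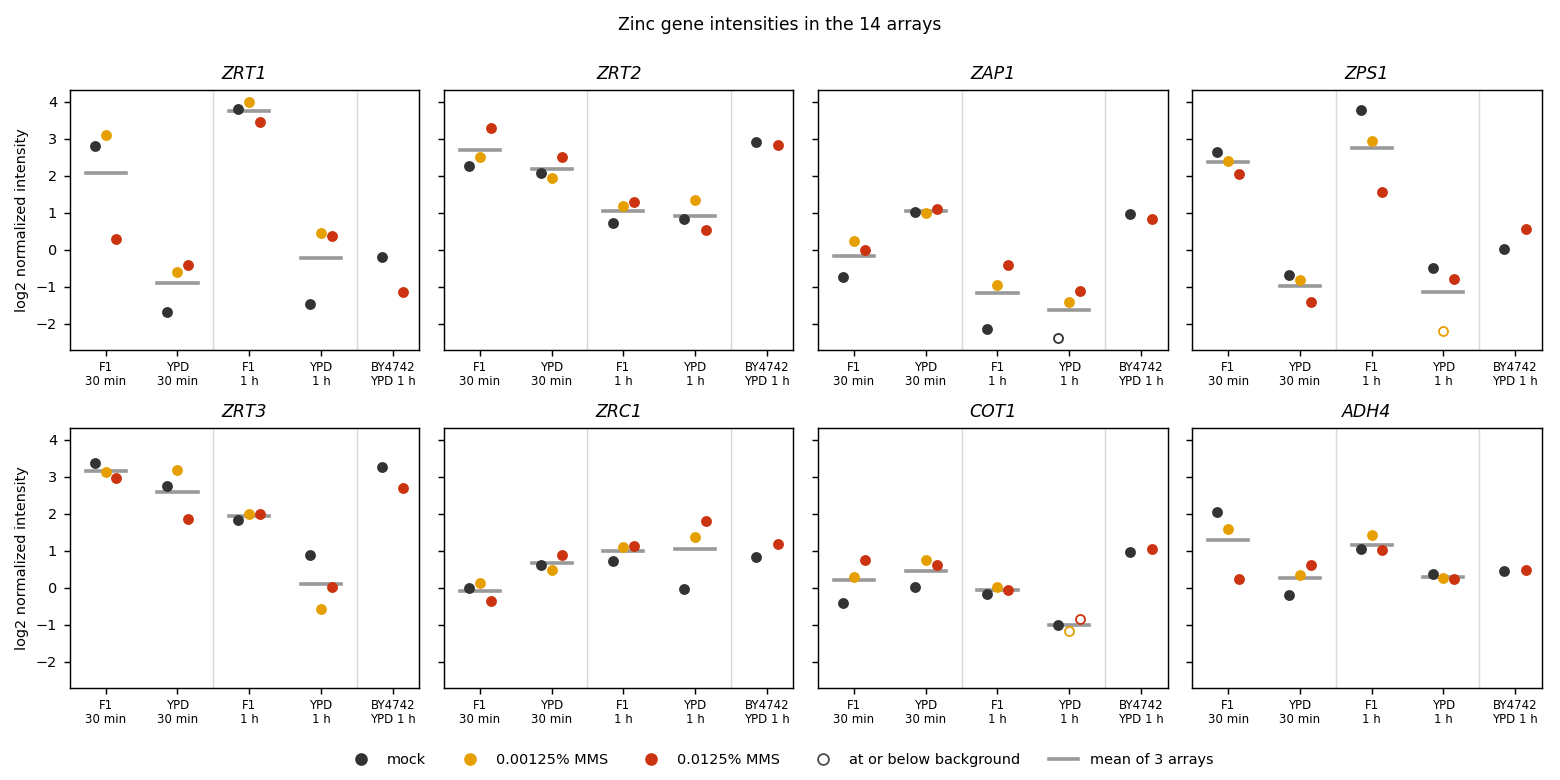
Normalized log2 intensity of the 8 zinc genes in each of the 14 arrays. Points are arrays, coloured by MMS dose; open points lie at or below the local background, and grey bars are means of the 3 arrays of a medium and time. ZRT1 and ZPS1 were higher in F1 than in YPD in all 6 matched pairs.

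ZRT1, the high-affinity transporter gene, had log2 intensities of 2.80, 3.09 and 0.30 in the F1 arrays of 30 min (mock, 0.00125% and 0.0125% MMS), against -1.68, -0.60 and -0.41 in the YPD arrays. The 1 h arrays had 3.80, 3.99 and 3.45 in F1, against -1.48, 0.44 and 0.37 in YPD. The F1 arrays lay above the YPD arrays at each time, as for 14.0% of all genes at 30 min and 11.7% at 1 h. The high-dose 30 min array in F1, at 0.30, was the lowest of the F1 arrays at that time and lay 0.71 above its YPD counterpart. Relative to the median signal of its array, the ZRT1 signal was 15.1, 17.9 and 12.3 in F1 at 1 h, against 0.339, 0.937 and 0.829 in YPD. One spot of the ZRT1 pair was below the background in the YPD mock arrays of both times, so the differences against these arrays depend on the pseudocount. The F1 minus YPD difference was 3.46 ± 0.49 (SE, 12 arrays; limma adjusted p = 0.00123). Single pairs of arrays of the same dose and time differed by 0.71 to 5.28, and F1 was higher in 6 of 6, which was also so for 7.76% of all genes. Without the high-dose 30 min array in F1 the difference was 3.97.

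ZPS1, the cell wall protein gene, had 2.65, 2.40 and 2.04 in F1 at 30 min, against -0.68, -0.83 and -1.43 in YPD. At 1 h it had 3.78, 2.93 and 1.56 in F1, against -0.48, -2.20 and -0.78 in YPD, where the low-dose array was below the background. The F1 arrays lay above the YPD arrays at each time, with no overlap, as for 14.0% of all genes at 30 min and 11.7% at 1 h. The difference was 3.63 ± 0.38 (SE, 12 arrays; limma adjusted p = 0.000161), and single pairs differed by 2.35 to 5.13. In the 1 h F1 arrays ZPS1 was highest in mock and lowest at the high dose.

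ZAP1, the gene of the zinc-sensing factor, had -0.73, 0.23 and -0.00044 in F1 at 30 min, against 1.02, 1.00 and 1.10 in YPD, with no overlap and F1 lower, as for 17.5% of all genes at that time. The 1 h values were -2.14, -0.95 and -0.41 in F1, against -2.38, -1.42 and -1.13 in YPD, and the groups overlapped. The YPD mock array of 1 h was at or below the background. In the low-dose and high-dose YPD arrays of 1 h, 1 spot of the pair was below it. Their means were 0.037 and 0.035 times the array median, so the 1 h difference of ZAP1 depends on the pseudocount. The difference over both times was -0.36 ± 0.39 (adjusted p = 0.648), and F1 was higher in 3 of 6 pairs.

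ZRT2, the low-affinity transporter gene, had 2.25, 2.51 and 3.30 in F1 at 30 min, against 2.08, 1.92 and 2.50 in YPD. After 1 h it had 0.72, 1.17 and 1.28 in F1, against 0.82, 1.34 and 0.53 in YPD. The groups overlapped at both times. The difference was 0.34 ± 0.29 (adjusted p = 0.556), with a 95% interval of -0.28 to 0.96.

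Genes of the vacuolar store came next. ZRT3, which encodes the exporter, had 3.37, 3.13 and 2.96 in F1 at 30 min, against 2.76, 3.17 and 1.87 in YPD. The 1 h arrays had 1.83, 1.99 and 1.98 in F1, against 0.89, -0.58 and 0.02 in YPD. The groups overlapped at 30 min and not at 1 h, where 11.7% of all genes had F1 higher with no overlap. The difference was 1.19 ± 0.35 over both times (adjusted p = 0.0609) and 1.83 ± 0.39 at 1 h (adjusted p = 0.0187). Its spots disagreed by up to 3.46 on the log2 scale, and 1 of the pair was below the background in the low-dose and high-dose YPD arrays of 1 h. Without background subtraction the 1 h difference was 0.68 (adjusted p = 0.0868).

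ZRC1, a vacuolar importer gene, had -0.0029, 0.13 and -0.37 in F1 at 30 min, against 0.62, 0.48 and 0.88 in YPD. F1 was lower with no overlap, as for 17.5% of all genes at that time. The 1 h values were 0.71, 1.10 and 1.13 in F1, against -0.04, 1.37 and 1.81 in YPD, where the YPD arrays spanned the F1 arrays. The difference was -0.40 ± 0.34 (adjusted p = 0.548). COT1, the other importer gene, had -0.41, 0.28 and 0.74 in F1 at 30 min, against 0.01, 0.75 and 0.61 in YPD. After 1 h it had -0.18, 0.02 and -0.07 in F1, against -1.00, -1.17 and -0.84 in YPD. The 2 YPD arrays with MMS at 1 h were at or below the background. F1 lay above YPD with no overlap at that time, as for 11.7% of all genes. The COT1 difference was 0.34 ± 0.34 (adjusted p = 0.625) over both times and 0.93 ± 0.38 at 1 h (adjusted p = 0.203).

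ADH4, the alcohol dehydrogenase gene, had 2.04, 1.58 and 0.23 in F1 at 30 min, against -0.20, 0.35 and 0.60 in YPD. The 1 h arrays had 1.05, 1.41 and 1.02 in F1, against 0.37, 0.26 and 0.23 in YPD. The groups overlapped at 30 min and not at 1 h, where 11.7% of all genes had F1 higher with no overlap. F1 was higher in 5 of 6 pairs, and the exception was the high-dose pair of 30 min, the pair in which ZRT1 also differed least. The difference was 0.95 ± 0.34 (adjusted p = 0.12), and without the high-dose 30 min array in F1 it was 1.19 (adjusted p = 0.0275). The ADH4 spots disagreed by up to 4.08 on the log2 scale, in the high-dose 1 h array in YPD, where 1 of them was below the background.

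In all, 2 of the 8 genes passed as higher in F1 and 0 as lower, beside 1.95% of all genes higher and 3.3% lower (5.25% in either direction). The median difference of the 8 genes was 0.65, against 0.02 for all genes. Under cyclic loess 249 genes were higher and 204 lower, against 119 and 201 with quantile normalization, and without background subtraction 42 were higher and 133 lower. Each medium spans 2 membranes, and over the means of the 4 membrane sets 136 genes passed, with ZRT1 and ZPS1 among them. The calls of ZRT1 and ZPS1 held in 29 of 29 alternative settings, with differences of 1.74 to 4.88 and of 1.72 to 3.91. Their lowest values came without background subtraction, the ZRT1 highest from mock-treated arrays alone and the ZPS1 highest from the 1 h arrays.

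**Figure D2:**
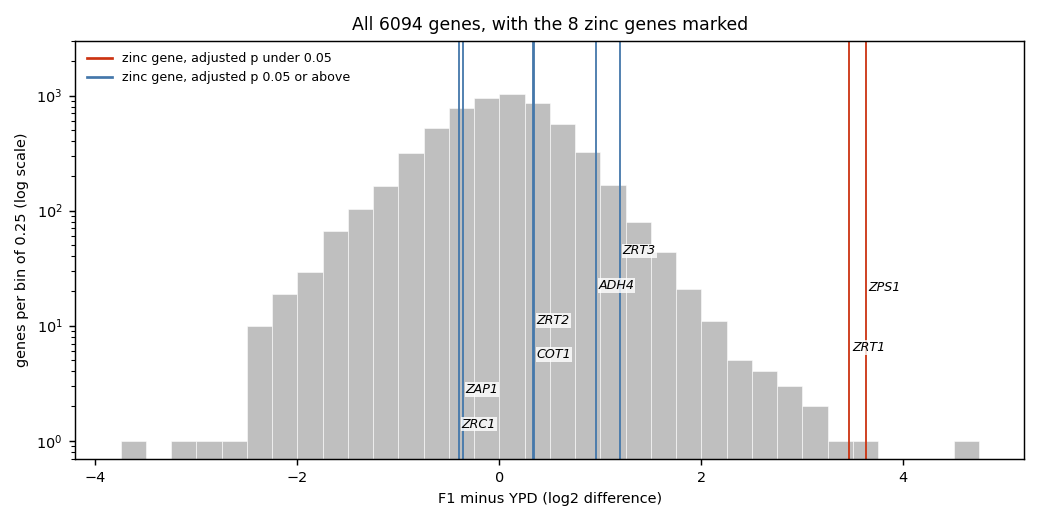
Distribution of the F1 minus YPD difference over all 6094 genes, in bins of 0.25 on the log2 scale with a log count axis. Lines mark the 8 zinc genes; ZRT1 (3.46) and ZPS1 (3.63) stand at the upper end and the other 6 lie between -0.40 and 1.19.

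The medium difference was also taken at each time, with the spread within membranes as its error. At 30 min ZRT1 rose in F1 by 2.96 ± 0.62 (adjusted p = 0.00667) and ZPS1 by 3.34 ± 0.47 (adjusted p = 0.00073). These were the 2 of 8 genes that passed at 30 min, where 13.1% of all genes did, 5.32% higher and 7.83% lower. ADH4 was at 1.04, ZAP1 at -1.20 (adjusted p = 0.069) and ZRC1 at -0.74, and ZRT2, ZRT3 and COT1 were at 0.52, 0.56 and -0.25. ZAP1 passed as lower in F1 in 2 of 6 alternative settings, without background subtraction (-0.46, adjusted p = 0.0301) and with 4 times the pseudocount (-0.84, adjusted p = 0.0162), and its adjusted p ran up to 0.14 in the others. At 1 h ZRT1 rose by 3.97 ± 0.62 (adjusted p = 0.00312), ZPS1 by 3.91 ± 0.47 (adjusted p = 0.000469) and ZRT3 by 1.83 ± 0.39, which made 3 of 8 genes where 3.74% of all genes passed, 2.18% higher and 1.56% lower. ADH4 was at 0.87, ZAP1 at 0.48, ZRT2 at 0.16 and ZRC1 at -0.07.

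The medium difference in the 1 h arrays minus that in the 30 min arrays was tested directly. Here 0 of the 8 genes passed (1.35% of all genes did, 0.755% higher and 0.591% lower). The largest value was that of ZAP1, at 1.68 ± 0.58 (adjusted p = 0.145), followed by ZRT3 at 1.27 ± 0.55 (adjusted p = 0.247) and COT1 at 1.18 ± 0.53 (adjusted p = 0.26). These 3 had unadjusted p-values of 0.0118, 0.0374 and 0.044 by limma. The 1 h call of ZRT3 is therefore not shown to differ from its 30 min value. For ZRT1 and ZPS1 the values were 1.01 ± 0.87 and 0.57 ± 0.66. The ZAP1 value rests in part on YPD signals of 1 h at or near the background.

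**Figure D3:**
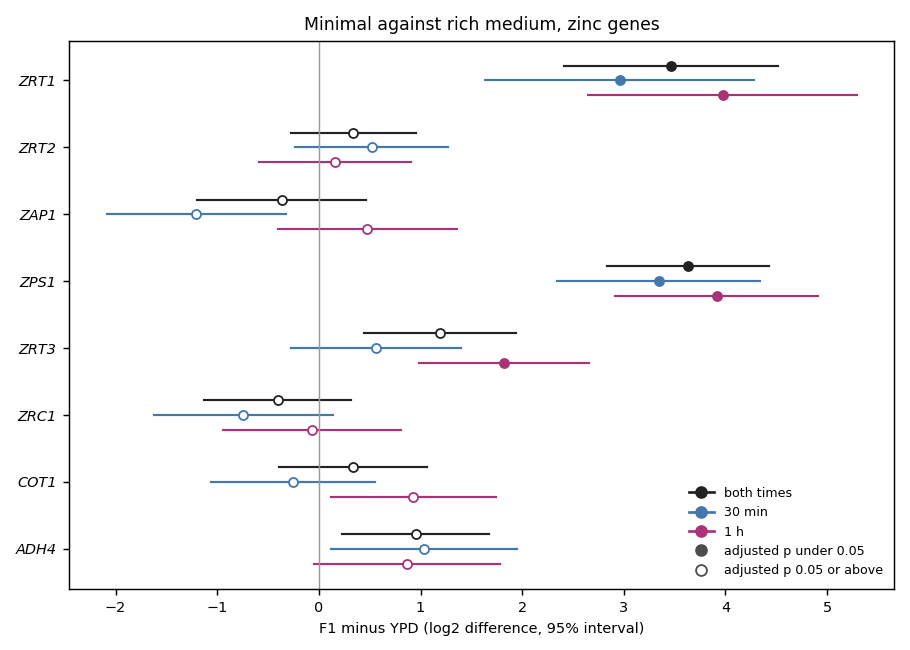
F1 minus YPD difference of each zinc gene over both times, at 30 min and at 1 h, with 95% intervals of the limma fits. Filled points passed at an adjusted p under 0.05: ZRT1 and ZPS1 in all 3 comparisons and ZRT3 at 1 h (1.83).

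A wider list of 24 zinc-responsive or zinc transport genes was read beside the 8, and 23 of them were measured. In F1, 16 were higher and 7 lower, where 51.2% of all genes were higher, with a median difference of 0.38 against 0.02 for all genes. Of the 23, 1 passed, where 5.25% of all genes did. That gene was RTC4 (1.09 ± 0.29, adjusted p = 0.0397), whose log2 intensity was at most -0.20 in the FF18984 arrays, and its call held in 9 of 29 alternative settings. RTC4 was at or below the background in 2 of 6 YPD arrays, so the size of its difference is uncertain. The other highest values were those of IZH1, a membrane protein gene of zinc homeostasis (1.24), MET30, an F-box protein gene of sulfur metabolism (1.19), and DPP1, a vacuolar lipid phosphatase gene (1.19). MET30 was at or below the background in 2 of 6 F1 arrays and 5 of 6 YPD arrays, and DPP1 in 1 and 3, so the size of both differences is uncertain. The lowest were those of NRG2, a transcriptional repressor gene (-1.31), FET4, a low-affinity iron transporter that also carries zinc (-0.59), YKE4, a zinc transporter of the endoplasmic reticulum (-0.53), and IZH4 (-0.42).

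At 30 min 4 of the 23 passed, where 13.1% of all genes did, and at 1 h 2 of the 23, where 3.74% did. At 30 min IZH1 rose in F1 by 3.09 ± 0.56 (adjusted p = 0.00273), RTC4 by 1.18 (adjusted p = 0.049) and UTH1 by 1.12 (adjusted p = 0.0424), and NRG2 fell by 2.63 (adjusted p = 0.00147). At 1 h VEL1 rose by 2.12 ± 0.43 (adjusted p = 0.0141) and DPP1 passed as higher in F1 (adjusted p = 0.0416). DPP1 was at or below the background in all 3 YPD arrays of 1 h and in 1 of 3 F1 arrays, so the size of its difference is uncertain. With the YPD arrays set at the lowest signal above the background where they lay below it, the F1 mean was 3.81-fold higher. That is not a lower limit, since the log2 difference ran from 0.40 to 1.88 over the alternative settings. In alternative settings the call was kept in 3 of 6 for RTC4 and 4 of 6 for UTH1 at 30 min, and in 3 of 5 for DPP1 at 1 h. IZH1 had 2.78, 3.31 and 2.71 in F1 at 30 min (mock, low and high dose), against -0.08, 0.06 and -0.47 in YPD. At 1 h it had 0.70, -2.11 and -0.67 in F1, against 0.68, 0.27 and -1.20 in YPD, with overlap.

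**Figure D4:**
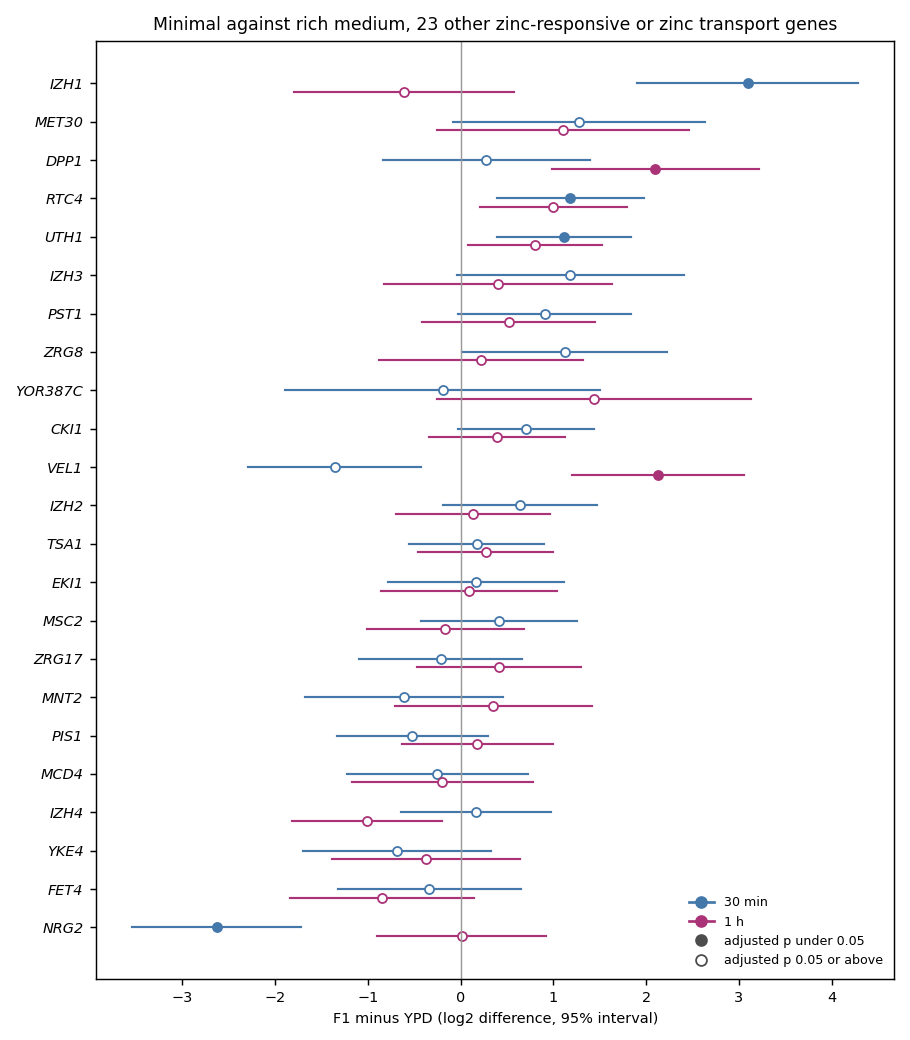
F1 minus YPD difference at 30 min and at 1 h, with 95% intervals, for the 23 measured genes of the wider zinc list, in the order of their difference over both times. Filled points passed at an adjusted p under 0.05; IZH1 (3.09) and NRG2 (-2.63) passed at 30 min, VEL1 (2.12) and DPP1 at 1 h, where the plotted DPP1 point sets F1 against YPD signals not above the background.

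ADH4 was set beside the other alcohol dehydrogenase genes. In F1, 1 of the 7 was higher and 6 lower, and none passed. ADH1, the main fermentative isoenzyme, was at -0.62 and ADH2, which oxidises ethanol, at -0.70. ADH3, the mitochondrial isoenzyme, was at -0.35, ADH5 at 0.20, ADH6 at -0.22, ADH7 at -0.43 and SFA1 at -0.13. The smallest adjusted p among them, 0.45, was that of ADH1. The ADH1 spots were dim in all 30 min and BY4742 arrays (-2.38 to -1.54) and bright in the FF18984 1 h arrays (3.73 to 6.22). ADH1 was at or below the background in 3 FF18984 arrays, so its difference over both times is uncertain.

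In the gene order of the reference table, ADH4 and ZRT1 are neighbours, and MNT2 and VEL1, both on the wider list, come next to ADH4 on the other side. The F1 minus YPD differences along this order were 0.38 for VEL1, -0.13 for MNT2, 0.95 for ADH4 and 3.46 for ZRT1. Of these 4 genes ZRT1 alone passed over both times.

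Patterns over the 12 FF18984 arrays were compared with that of ZRT1 after the mean of each time had been subtracted, among 5840 genes above the background in at least 6 arrays. The genes most like ZRT1 were IPP1, the inorganic pyrophosphatase gene (Pearson r = 0.958), AFG2 (0.949), POR1, the mitochondrial porin gene (0.947), MSM1, a mitochondrial methionyl-tRNA synthetase gene (0.944), and EXG1, an exoglucanase gene (0.940). Of the zinc genes ADH4 came 46th (r = 0.871), ZPS1 63rd (0.843) and ZRT3 477th (0.653). COT1 had r = 0.343, ZRT2 0.220, ZRC1 -0.071 and ZAP1 -0.104. These values describe 12 arrays on 4 membranes and share the difference between the media.

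MMS was compared with mock treatment within membranes. None of the 8 genes passed at 0.0125%, where 0.082% of all genes (5) did. Their differences ran from -0.96 for ZPS1 (adjusted p = 0.328) to 0.95 for ZAP1 (adjusted p = 0.273). In single FF18984 pairs ZPS1 ran from -2.22 to -0.15, ZAP1 from -0.02 to 1.72 and COT1 from -0.17 to 1.16. These genes fell short of the threshold, with unadjusted p-values of 0.0313, 0.0186 and 0.144 at the high dose by limma. ZPS1 was below the background in the low-dose YPD array of 1 h. Relative to the array median, COT1 in F1 at 1 h was at 0.968 in mock and lower with MMS, at 0.767 and 0.443. Its normalized values there were higher with MMS. The largest ZAP1 difference, in F1 at 1 h and the high dose, set 0.258 times the array median against 0.200 in mock. The differences share 1 mock array per membrane between the doses. ZRT1 averaged 0.07 ± 0.53 (95% interval -1.08 to 1.21), and ADH4 -0.30, ZRT3 -0.50, ZRT2 0.44, COT1 0.51 and ZRC1 0.54.

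At 0.00125% by limma 0 of the 8 genes and 0 of all 6094 passed (0.0%), while 392 genes had an unadjusted p under 0.05, ZAP1 among them at 0.0478. The highest value was that of ZRT1 (0.87 ± 0.53, adjusted p = 0.837) and the lowest that of ZPS1 (-0.74 ± 0.40, adjusted p = 0.807). ZAP1 was at 0.77, ZRC1 at 0.45, COT1 at 0.37, ZRT2 at 0.27, ADH4 at 0.08 and ZRT3 at -0.28.

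For ZRT1 the high-dose values lay below mock in F1 and above it in YPD. In F1 treated minus mock was -2.50 at 30 min and -0.35 at 1 h, and in YPD it was 1.27 and 1.85. The difference between the media was -2.99 ± 0.79, with an unadjusted p of 0.00241 and an adjusted p of 0.953 by limma. Over all genes 0 passed this test (0.0%) and 253 had an unadjusted p under 0.05. In YPD the ZRT1 mock arrays were those with 1 spot below the background. ADH4 gave -1.81 and -0.03 in F1, and 0.80 and -0.14 in YPD, a difference of -1.25 ± 0.72 (adjusted p = 0.953).

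**Figure D5:**
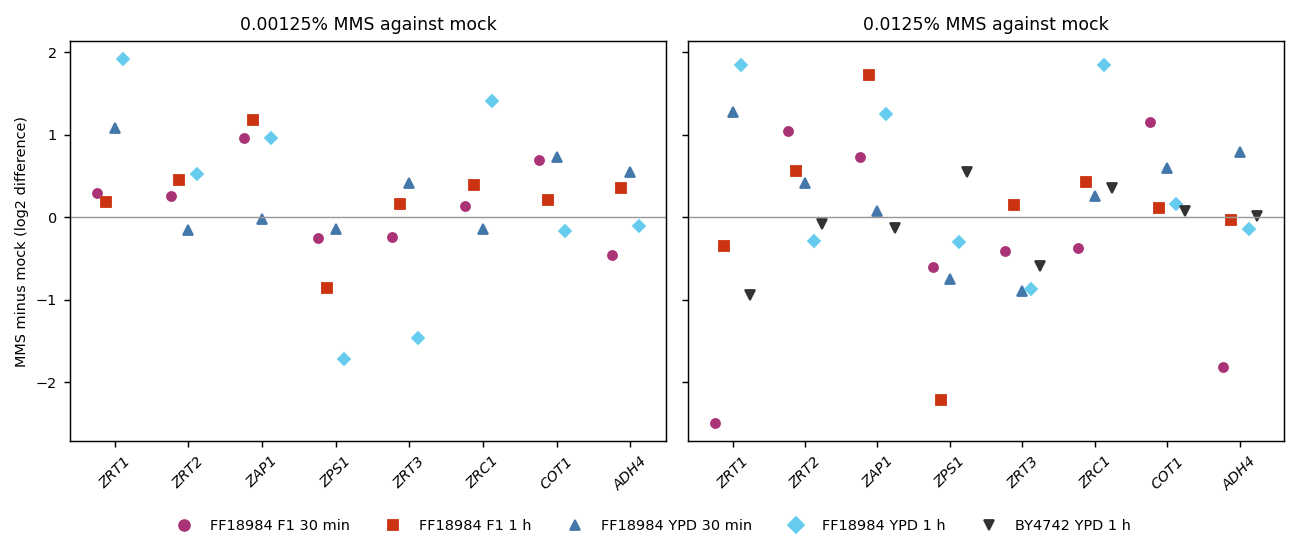
MMS minus mock difference of each zinc gene in single pairs of arrays, at 0.00125% (left) and 0.0125% (right), by strain, medium and time. The lowest points are ZRT1 in F1 at 30 min (-2.50) and ZPS1 in F1 at 1 h (-2.22), both at 0.0125%.

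BY4742 gave 1 array per treatment, so its values have no test. With 0.0125% MMS and with mock, ZRT1 was at -1.14 and -0.20, ZPS1 at 0.56 and 0.02, and ADH4 at 0.47 and 0.45. ZRT1 was thus lower with MMS by 0.94 in value, while both treated YPD arrays of FF18984 at that dose were higher than mock. ZPS1 was higher with MMS by 0.54, while those FF18984 arrays were lower than mock (-0.74 at 30 min and -0.30 at 1 h). ZRT3 was at 2.68 and 3.27 and ZRT2 at 2.84 and 2.92. ZAP1 was at 0.83 and 0.96, ZRC1 at 1.19 and 0.84, and COT1 at 1.03 and 0.96. In the YPD arrays of FF18984, ZRT1 ran from -1.48 to 0.44 at 1 h, which spanned both BY4742 values, and from -1.68 to -0.41 at 30 min, which did not span the BY4742 mock value. Both ZPS1 values of BY4742 lay above the FF18984 YPD arrays of 1 h (at most -0.48) and of 30 min (at most -0.68).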

How the data were processed

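Total RNA was labelled by reverse transcription with 33P and hybridised to membranes, per the labels. The authors deposited spot intensity values without normalization between arrays, as the integral and the integral minus local background, per the file headers. They also deposited a table of processed intensity values, made in a way the sources used here do not give, which served as an alternative. Each array was divided by its median positive background-subtracted value, values below 0 were set to 0, a pseudocount of 0.187 (the 10th percentile of positive values) was added and log2 taken. The spots of each gene were then averaged, and arrays were brought to 1 distribution by quantile normalization (R 4.3.3, limma 3.58.1), with no gene left out. Of 6094 genes, 5567 were named from the RefSeq gene table and 527 kept the name in the files.

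F1 minus YPD was fitted with time and dose as terms and membrane as a random block (duplicateCorrelation, statmod 1.5.0, correlation 0.0744). Differences within a time, between times and between doses came from fits with membrane set as a fixed term (lmFit, eBayes with trend), and p-values were adjusted over all genes. They reflect the spread between these arrays alone, and the number of arrays limits the precision. The fits were tested on simulated data with a shift per membrane. Changes of the larger sizes were mostly recovered, but the share of unchanged genes among the calls exceeded the threshold, more for F1 minus YPD than for MMS, so the p-values of the F1 minus YPD fit may be too small where membranes differ. Tables and figures were made with pandas 2.3.3, numpy 2.4.6 and matplotlib 3.10.9 (Python 3.11.15).

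The 8 genes and the lists were chosen with earlier results of these data known. The text names all 8, the 4 highest and 4 lowest of the wider zinc list and any that passed, all 7 other alcohol dehydrogenase genes, the 3 largest amino acid differences and the 5 genes most like ZRT1. Alternatives were other normalizations, no background subtraction, a larger pseudocount, the authors' table, a filter on dim genes, other blocks, pairs of matched time and dose (chosen after seeing the data), and leaving out arrays or membranes. A gene is at or below the background where its spots average 0 or less after background subtraction.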

Additional observations from a re-analysis of the deposited data

Results flagged for a closer look

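ZRT1 in the F1 arrays had 1 array far from the other 5: the high-dose 30 min array was at a log2 intensity of 0.30, against 2.80 to 3.99 in the others. The 6 arrays span both times, and the other F1 arrays of 30 min were at 2.80 and 3.09. This was the 1 case among 16 groups of 6 arrays checked for the 8 zinc genes, and how often chance gives such a case was not tested. Both ZRT1 spots of that array were above the background.

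The F1 minus YPD difference was unlike in the 30 min and the 1 h arrays, by limma's test of the difference itself, for 3 genes of the wider zinc list. The 1 h minus 30 min value was 3.48 ± 0.61 for VEL1 (adjusted p = 0.0131), 2.64 ± 0.60 for NRG2 (adjusted p = 0.0453) and -3.70 ± 0.79 for IZH1 (adjusted p = 0.0297). VEL1 was at 2.12 at 1 h and -1.36 at 30 min, NRG2 at 0.01 and -2.63, and IZH1 at -0.61 and 3.09. The calls held in 6 of 6 alternative settings for VEL1, 5 of 6 for NRG2 and 4 of 6 for IZH1. Each value sets 4 membranes against each other, and the part of the membranes in it was not tested. Nor was it tested whether the spots of these genes report the same gene in the arrays of both times.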

How the results depend on the processing

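For the 8 zinc genes, 553 of 584 values under alternatives kept their direction and side of the threshold, 9 passed that had not, 1 no longer passed and 21 changed sign. ZRT1 and ZPS1 passed for F1 minus YPD in all 29 alternatives run, ZRT3 in 6 and ADH4 in 1. The cause of the changes below was not tested.

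The 320 genes called for F1 minus YPD (119 higher, 201 lower) became 175 (42 and 133) without background subtraction, 136 (60 and 76) over means of the 4 membrane sets and 10 (7 and 3) in mock-treated arrays alone. There were 495 (204 higher) with no block and 249 higher under cyclic loess. With the 30 min arrays alone there were 672 (276 and 396) and with the 1 h arrays alone 506 (272 higher), both chosen after seeing the data. Leaving out single arrays or membrane sets gave 136 to 770 genes, 73 to 320 higher and 63 to 450 lower, with both ends from leaving out a YPD set (30 min the lower, 1 h the higher). The 801 genes at 30 min became 357 under median centring and 1517 without background subtraction, and the 228 at 1 h became 431 under cyclic loess and 383 with the authors' table. The 82 genes called for 1 h minus 30 min became 52 under median centring, and 618 without background subtraction, 246 with 4 times the pseudocount and 298 with the authors' table. The 5 genes at 0.0125% MMS became 0 under median centring and without background subtraction and 1 under cyclic loess, and 0 to 11 when a membrane set was left out.

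For F1 minus YPD, signs turned as follows, none of them in a gene that had passed over both times. With the 1 h arrays alone ZAP1 was at 0.48, IZH1 at -0.61, NRG2 at 0.012, ADH3 at 0.028, ADH5 at -0.10 and SFA1 at 0.67. With the 30 min arrays alone COT1 was at -0.25, IZH4 at 0.17, VEL1 at -1.36, ADH6 at 0.29 and ADH7 at 0.47. In mock-treated arrays alone ZRC1 was at 0.059, ADH1 at 0.021, ADH2 at 0.22, ADH3 at 0.41 and SFA1 at 1.00. Without background subtraction YKE4 was at 0.11 and SFA1 at 0.54, with 4 times the pseudocount SFA1 was at 0.10, and with the authors' table at 0.14. ADH3 was at 0.058 under cyclic loess and ADH5 at -0.14 under median centring. When arrays or sets were left out, F1 minus YPD ranged from -1.20 to 0.48 for ZAP1, -0.25 to 0.93 for COT1, -0.61 to 3.09 for IZH1, -1.01 to 0.17 for IZH4, -2.63 to 0.012 for NRG2, -1.36 to 2.12 for VEL1, -0.73 to 0.028 for ADH3, -0.31 to 0.53 for ADH5, -0.73 to 0.29 for ADH6, -1.32 to 0.47 for ADH7 and -0.93 to 0.67 for SFA1.

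At 1 h IZH1 was at 0.31 without background subtraction. The ADH4 change between times was 0.25 under median centring and 0.10 under cyclic loess. At 0.0125% MMS ZRT1 was at -0.28 without background subtraction, -0.23 with 4 times the pseudocount, -0.20 with the authors' table and -0.53 to 0.92 when a set was left out, and ADH4 was at 0.016 under median centring and -0.66 to 0.21 when a set was left out. At 0.00125% ZRT3 was at 0.031 without background subtraction, with a range of -0.51 to 0.11 when a set was left out, and ADH4 ranged from -0.072 to 0.26. The ZRT3 difference in high-dose effect between media was -0.31 without background subtraction.

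The labels give no replicate numbers. With the F1 and YPD arrays of the same time and dose taken as 6 pairs (a block chosen after seeing the data), 249 genes passed (91 higher and 158 lower), and of the 8 zinc genes ZRT1 (adjusted p = 0.00465) and ZPS1 (adjusted p = 0.000969). Of the wider zinc list RTC4 no longer passed (adjusted p = 0.0852). Signals near the background limit ZAP1, COT1, ZPS1, DPP1 and MET30 at 1 h in YPD, and RTC4 in YPD. Single spots below the background also limit ZRT1 in the YPD mock arrays of both times. The same holds for ZRT3 in the low-dose and high-dose YPD arrays of 1 h, and for ADH4 in the high-dose one.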
